A study of Rattus norvegicus with 4 samples.

Results

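The fibroblast growth factor (FGF) receptors measured on a rat liver array were Fgfr3, on 1 feature, and Fgfr2, on 2 features. They were found as all features with a single gene symbol that starts with Fgfr, or with Fgf followed by a digit, which gave 3 of 1936 features and 2 of 958 named genes. No feature with a single symbol carried that of an FGF ligand, of Fgfr1, Fgfr4 or Fgfrl1, or of the coreceptors Klb and Kl, so these are not analysed here. The family was chosen from the low ratio of Fgfr3 on these same arrays, so its values below are a description, with no test.

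FGF receptors are receptor tyrosine kinases that bind FGF ligands together with heparan sulfate and signal through the adaptor Frs2, the Ras and MAP kinase cascade, phosphatidylinositol 3-kinase and phospholipase C gamma. In liver the best known of them is Fgfr4, which with the coreceptor Klb receives the FGF hormone that the ileum releases in response to bile acids and lowers the transcription of Cyp7a1. Fgfr3 is best known as a brake on the growth of long bones, and Fgfr2 as the receptor of FGF7 and FGF10 on epithelia.

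The treated group was male Sprague-Dawley rats injected intraperitoneally with 75 mg/kg α-naphthylisothiocyanate (ANIT), a toxicant of the bile duct epithelium used as a model of cholestasis, and its controls received the same volume of the vehicle, olive oil. Livers were taken after 24 h and the RNA of 3 rats per condition was mixed, which left 1 pool per condition, no measure of the spread between animals and no p-value. The pools were compared directly on 4 spotted cDNA arrays in a dye swap. ANIT was labelled with Cy5 on the odd-numbered arrays, and Cy3 was its label on arrays 2 and 4. From the labels, the arrays repeat the same RNA, and every SD here (n = 4 arrays) is a hybridisation error that also holds any dye difference; the number of arrays limits the precision.

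Each value is a log ratio read as log2 of the ANIT pool over the olive oil pool. The direction was taken from the channel order of the labels and is likely, not certain, and with the opposite one every sign below would turn. The sources used here do not give the base of the logarithm or the spot intensities. The medians of single arrays were -0.68 and -0.64 where Cy5 marked ANIT and 0.31 and 0.35 where Cy3 did, and the median of all feature means was -0.25. The tissue label could not be checked against markers, since a ratio carries no level.

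Because Fgfr3 and Fgfr2 differed in their ratios, the start regions of both genes are shown, from RefSeq on GRCr8 and on the strand of the gene (250 bases before to 50 after the gene's start). Fgfr3 (gene ID 84489) has its window at chr14:81227160-81227459 and Fgfr2 (gene ID 25022) at chr1:194280865-194281164, both on the minus strand. Capitals mark the GC box GGGCGG or its reverse CCGCCC, which Sp1-type factors bind.
Fgfr3: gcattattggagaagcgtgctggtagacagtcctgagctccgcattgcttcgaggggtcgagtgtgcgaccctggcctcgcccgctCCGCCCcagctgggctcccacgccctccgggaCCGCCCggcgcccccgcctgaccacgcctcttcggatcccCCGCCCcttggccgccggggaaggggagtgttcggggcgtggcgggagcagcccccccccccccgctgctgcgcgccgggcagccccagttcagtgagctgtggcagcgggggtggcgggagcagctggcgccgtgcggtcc
Fgfr2: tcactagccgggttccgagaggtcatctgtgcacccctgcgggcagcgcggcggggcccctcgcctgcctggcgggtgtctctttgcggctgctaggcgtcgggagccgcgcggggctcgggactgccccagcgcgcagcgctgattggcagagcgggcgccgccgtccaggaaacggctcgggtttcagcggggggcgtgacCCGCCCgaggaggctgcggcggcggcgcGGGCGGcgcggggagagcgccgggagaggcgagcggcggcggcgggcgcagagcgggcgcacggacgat

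Both windows were rich in GC and CpG, close in GC content and less close in CpG count. The GC content was 74.7% at Fgfr3 and 77.7% at Fgfr2, against a median of 51.7% over 33469 rat windows of the same length, and the windows held 31 and 48 CpG dinucleotides, against a median of 7. GC boxes were found 3 times at Fgfr3 and 2 times at Fgfr2, while 33.1% of all windows held at least 1 on either strand. The CCAAT box (CCAAT or ATTGG) was found 1 time in each, as in 37.5% of all windows, and the TATA box (TATAAA or TTTATA), held by 14.2% of windows, was found in neither. The matches are a description of these letters and were not related to the ratios.

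Fgfr3 was lower in the ANIT pool than in the olive oil pool on every array. Its log2 ratios were -2.35, -2.81, -2.44 and -1.92 on arrays 1 to 4. No array came near 0, and even the smallest of these ratios amounted to a 3.79-fold lower signal, the largest to a 7.01-fold lower one. The mean was -2.38 ± 0.36 (SD, n = 4 arrays), or 5.20-fold lower. In whole liver RNA, fewer cells of a type and less RNA per cell cannot be told apart.

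Fgfr2 lay close to 0 on both of its features. The first feature had log2 ratios of -0.18, 0.53, -0.29 and 0.36 on arrays 1 to 4, with a mean of 0.10 ± 0.40 (SD, n = 4 arrays). The second had -0.09, 0.48, -0.15 and 0.69, with a mean of 0.23 ± 0.41. Both features were slightly below 0 on the arrays with ANIT in Cy5 and above 0 on those with ANIT in Cy3, so neither pool was higher in both dye orientations in the values as deposited.

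**Figure D1:**
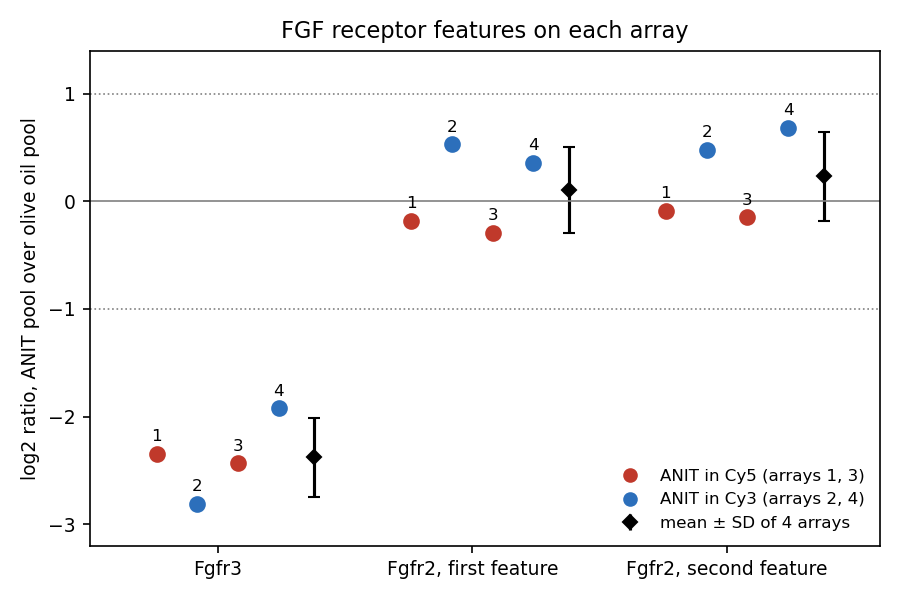
Log2 ratio of the ANIT pool over the olive oil pool (vertical axis) for the Fgfr3 feature and both Fgfr2 features, with 1 point per array (numbered 1 to 4), red for ANIT in Cy5 and blue for ANIT in Cy3, and the mean ± SD of the 4 arrays as a diamond; dotted lines mark 2-fold. Fgfr3 lies between -2.81 and -1.92 on all arrays, and both Fgfr2 features lie between -0.29 and 0.69.

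By the rule that a feature is lower or higher when its mean differs at least 2-fold and all 4 arrays have the same sign, Fgfr3 was lower, and neither Fgfr2 feature was called. Over all 1936 features, 59 were lower (3.05%) and 15 higher (0.775%). The count of 1 lower member in 3 follows from how the family was chosen, so nothing is read from it. Only 5 features had a lower mean than Fgfr3, and they stood for Car3 (on 2 features), Car2, Scd and Acsl1. On the single arrays Fgfr3 was among the lowest 11 features each time, at place 9, 5, 11 and 8 from the bottom on arrays 1 to 4. The Fgfr2 features stood in the upper part of the distribution, above 83.6% and 88.5% of all feature means, though their means were within 1 SD of 0. That SD holds the dye difference, and the median of all feature means was -0.25, not 0.

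Set against the median of both Fgfr2 features on the same array, Fgfr3 was lower in each hybridisation. The difference, Fgfr3 minus Fgfr2, was -2.21, -3.32, -2.22 and -2.44 on arrays 1 to 4. All 4 values lay far below 0, with the difference on array 2 the largest in size, and their mean was -2.55 ± 0.52 (SD, n = 4 arrays), a 5.84-fold difference between the ratios. Centring the arrays leaves this within-array difference as it is, by construction. It compares how the 2 transcripts' signals differed between the pools, and says nothing of which receptor was the more abundant.

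In the values as deposited, the receptors also differed in how their ratios changed with the dye. For Fgfr3 the mean log2 ratio was -2.39 on arrays 1 and 3 (ANIT in Cy5) and -2.37 on arrays 2 and 4 (ANIT in Cy3). The dye contrast, the amount by which each orientation departs from the mean of both, was -0.01 for Fgfr3, and 3.20% of all features had one at most as large in size. For Fgfr2 the orientations gave -0.24 and 0.45 on the first feature and -0.12 and 0.58 on the second, with dye contrasts of -0.34 and -0.35. That pattern, negative in the first orientation and positive in the second, was shared by 1130 features (58.4%), and the median dye contrast of all features was -0.40. Hence the ratio of Fgfr3 differed by 0.025 between the orientations as deposited, while that of Fgfr2 followed the common dye pattern. This contrast depends on the array medians, since with centred arrays the orientations of Fgfr3 gave -1.73 and -2.69. The deposited mean on arrays 2 and 4 also averages values that differed by 0.89.

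**Figure D2:**
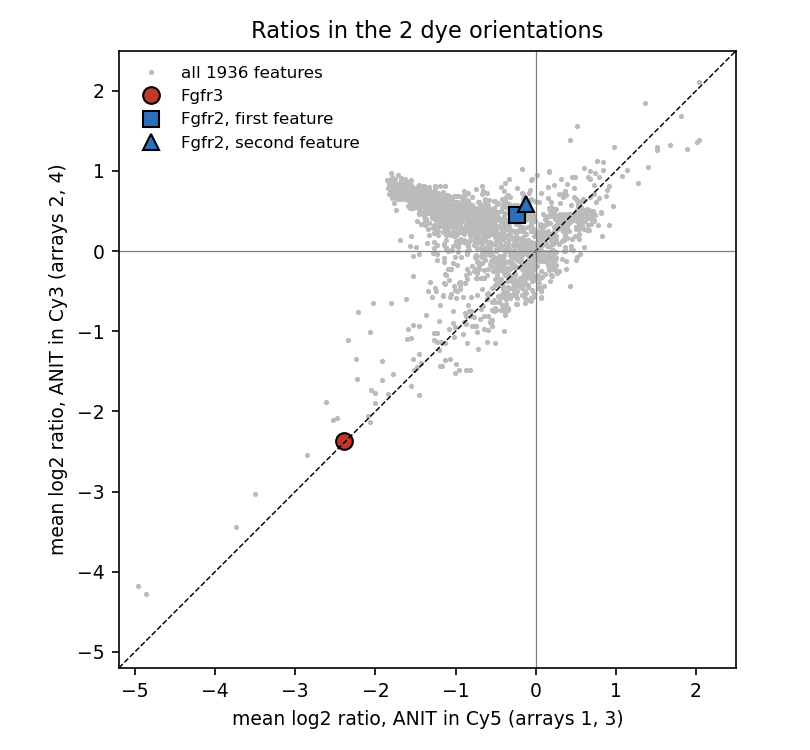
Mean log2 ratio of the ANIT pool over the olive oil pool with ANIT in Cy5 (horizontal axis) and with ANIT in Cy3 (vertical axis) for all 1936 features (grey), Fgfr3 (red circle) and the Fgfr2 features (blue square and triangle); the dashed line marks equal ratios. Fgfr3 lies on the line at -2.39 and -2.37, and both Fgfr2 features lie in the quadrant that holds 58.4% of features.

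Subtracting the median of each array raised the median of all features by 0.17 and changed the balance between the orientations. Fgfr3 then had -1.67, -3.12, -1.79 and -2.27 on arrays 1 to 4, with means of -1.73 where Cy5 marked ANIT and -2.69 where Cy3 did. Every centred array stayed past 2-fold, and the mean was -2.21. The centred ratios of the first Fgfr2 feature were 0.50, 0.22, 0.35 and 0.02 on arrays 1 to 4 (mean 0.27), and those of the second were 0.59, 0.17, 0.50 and 0.34 (mean 0.40). After centring both Fgfr2 features were thus above 0 on all 4 arrays and no longer changed sign with the dye, and neither reached 2-fold.

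Repeat arrays of one orientation matched closely for Fgfr3 in one orientation and poorly in the other. Arrays 1 and 3 differed by 0.09, against a median difference of 0.14 over all features. Arrays 2 and 4 differed by 0.89, against a median of 0.11, and only 3 of the 1936 features had a larger difference between these arrays. Among the 59 lower features, the median difference of arrays 2 and 4 was 0.17, and 1 of them exceeded Fgfr3. Without array 2 the mean of Fgfr3 was -2.16, and without array 4 it was -2.60. The size of the Fgfr3 ratio with ANIT in Cy3 was therefore less precise than for nearly all other features, although both arrays put it far below 0.

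The Fgfr2 features carry the same sequence accession and so were taken as repeats of the same clone. Their means differed by 0.13, which was the 9th smallest among 21 pairs of features that share an accession (median 0.19, range 0.0035 to 0.59). The agreement between the Fgfr2 features was thus of the usual size for repeated spots, but not particular to them. The 678 pairs of features of one gene with different accessions had a median difference of 0.17. Fgfr3 had a single feature and no such repeat. For context, 10 named features had a mean of -2 or below, and 6 of them had another feature of the same gene. For 5 of these 6 the other feature was lower as well, and the exception was Car2 (-3.59 and -0.03). Car3 and Acsl1 enter this count with both of their features, so each pair is counted from both sides. Of all 52 lower features with 1 symbol, 21 were the only feature of their gene. Another feature of the gene was lower as well for 22, and no other feature was lower for 9. How far each cDNA probe also binds transcripts of other FGF receptors was not tested.

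Other receptor tyrosine kinases on the array, from a list chosen with earlier results of these data known, had none past the rule. Of 49 listed symbols 9 were measured, and by gene mean they lay between -0.47 and -0.07 with a median of -0.21, against -0.24 over all 958 genes, of which 34 were lower (3.55%) and 6 higher (0.626%). Egfr, the epidermal growth factor receptor, was the lowest at -0.47 ± 0.17, with -0.45, -0.49, -0.69 and -0.27 on arrays 1 to 4. Its features had unlike means of -0.68 and -0.27, a difference that the SD of the gene mean does not hold. Both features of Egfr thus lay below 0 on all arrays, but well short of the ratio of Fgfr3. Kdr, a vascular endothelial growth factor receptor, stood at -0.44 ± 0.48. Tyro3, a receptor of the growth arrest protein Gas6, stood at -0.35 ± 1.10 and the angiopoietin receptor Tek at -0.22 ± 1.01. In 6 of the 9 kinases the sign differed between the orientations, as it did for Fgfr2.

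**Figure D3:**
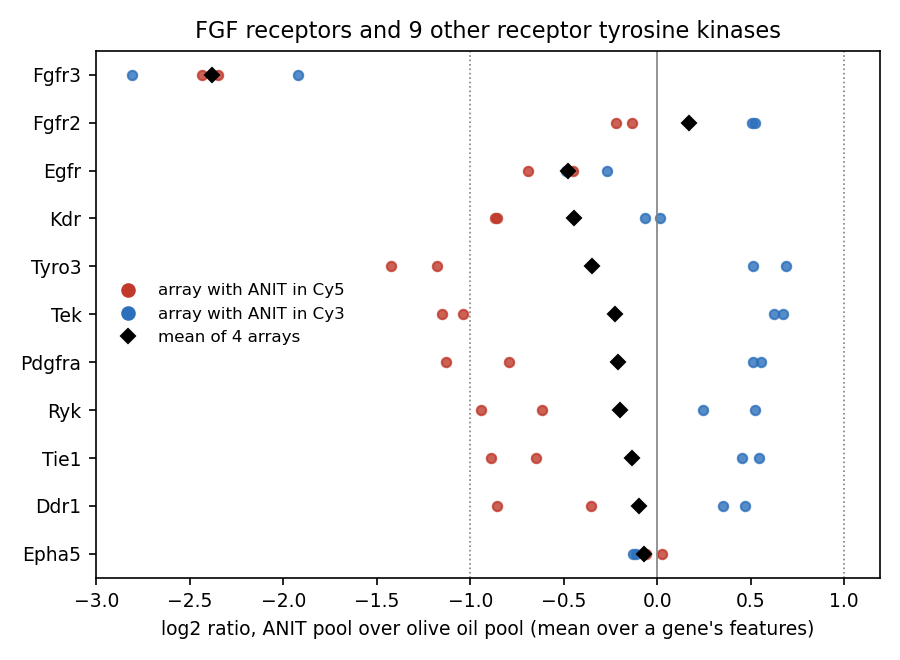
Log2 ratio of the ANIT pool over the olive oil pool (horizontal axis, mean over each gene's features) for Fgfr3, Fgfr2 and 9 other receptor tyrosine kinases, with 1 point per array (red for ANIT in Cy5, blue for ANIT in Cy3) and the mean of the 4 arrays as a diamond; dotted lines mark 2-fold. Fgfr3 is the only receptor with every array below -1, while the means of the 9 other kinases lie between -0.47 and -0.07.

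Genes that act downstream of FGF receptors were few on the array, and none of them passed the rule by gene mean. The lists of ligands, receptors, binding proteins, adaptors, kinases, feedback inhibitors and target genes named 134 symbols, of which 26 were measured. Fgfr3, for which the family was chosen, was the 1 lower gene among them. Over all genes 3.55% were lower and 0.626% higher, so nothing is read from so small a count. Of the proteins that bind the receptors from the cell surface, the adhesion molecules Ncam1 (-0.35 ± 1.03) and Cdh2 (-0.42 ± 0.24) were measured. The 11 adaptors and lipid signalling genes had a median of -0.24. Among them Grb2, the adaptor that links receptors to Ras, stood at -0.45 ± 0.86, the transcription factor Stat5b at -0.45 ± 0.49, and the protein kinase C isoform Prkcz at -0.54 ± 0.95. The features of Prkcz did not behave alike, with means of -0.92, -0.52 and -0.18, and only the first was below 0 on all arrays. Those of Grb2 had means of -0.55 and -0.35, and only the second was below 0 on all arrays. Stat3, a transcription factor that cytokine and growth factor receptors activate, was the highest of the list at 0.93 ± 0.09, and 1 of its 2 features reached 2-fold (1.00, and 0.86 on the other).

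The 4 genes of the MAP kinase cascade had a median of 0.14. Map2k1 and Map2k2, the kinases that phosphorylate ERK, stood at -0.03 ± 0.14 and 0.41 ± 0.25, Araf, a Raf kinase, at -0.03 ± 0.27 and the stress kinase Mapk14 at 0.32 ± 0.06. The 3 feedback phosphatases measured had a median of -0.22. Dusp6, a phosphatase of ERK that FGF signalling induces in many tissues, stood at -0.22 ± 0.67 over 3 features. Its features did not behave alike, with means of -0.43, -0.38 and 0.15, and the first 2 changed sign with the dye while the last was above 0 on all arrays. Dusp5, another phosphatase of ERK, stood at 0.53 ± 0.35 and Dusp1 at -0.28 ± 0.10. The 4 growth factor target genes had a median of 0.12, with Myc at 0.52 ± 0.21, Egr1 at 0.23 ± 0.72, Ccnd1 at 0.01 ± 0.56 and Fos at -0.07 ± 0.53. The spread over arrays, which holds the dye difference, exceeded the mean for the last 3 of these, but not for Myc.

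Among peptide growth factors of other families, 11 of 33 listed symbols were measured, none passed the rule and the median was -0.30. For comparison, 3.55% of all genes were lower and 0.626% higher. Igf1, the insulin-like growth factor that liver secretes, stood at -0.51 ± 0.08, and Egf, a ligand of Egfr, at -0.74 ± 0.82. Mst1, the macrophage stimulating protein made by hepatocytes, stood at -0.34 ± 0.16, and Igf2, a relative of Igf1, at -0.33 ± 0.18.

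Genes of bile acid synthesis, uptake and sensing were listed because the ileal FGF hormone acts on this pathway through Fgfr4. Of 6 measured, 4 were lower and 0 higher by gene mean, and the median was -1.25. Over all genes 3.55% were lower. The list was chosen with earlier results of these data known, so nothing is read from the count. The lower genes were Cyp7a1, Cyp8b1, Cyp27a1 and Slc10a1, all of them enzymes of bile acid synthesis except the carrier Slc10a1. The features of Cyp8b1 disagreed, with means of -1.89 and -0.50, and the second changed sign with the dye (-1.61, 0.58, -1.30 and 0.34 on arrays 1 to 4). The uncalled members were the bile acid receptor Nr1h4 at -0.85 ± 0.46 and Nr0b2, a repressor of Cyp7a1 transcription, which lay above 0 on all arrays at 0.62 ± 0.17. The smallest ratio by gene mean was that of Cyp7a1 at -1.60 ± 0.78, so Fgfr3 was below each of them. Neither the hormone nor its receptor pair was measured on a feature with a single symbol, and a relation of these genes to Fgfr3 was not tested.

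The features most like Fgfr3 were sought as those of other named genes with the smallest Euclidean distance over the 4 array ratios. The nearest was Tsc22d1, a transcriptional regulator, at a distance of 0.53, with -2.56, -2.33, -2.49 and -1.89 on arrays 1 to 4. It was followed by Fasn, the fatty acid synthase, at 0.72, by Fads2, the delta-6 desaturase, at 0.82, and by the first feature of Acsl1, a fatty acyl-CoA synthetase, at 0.88. Next came Hao2, a peroxisomal hydroxyacid oxidase (0.92), the second feature of Acsl1 (0.97), a feature of Cyp8b1 (1.19) and a feature of Wt1, a transcription factor (1.24). The means of these 8 features lay between -2.70 and -1.89. For scale, the features of Fgfr2 were at 5.07 and 5.29 from Fgfr3, the median feature at 4.56, and the Fgfr2 features at 0.37 from each other. Fgfr3 was lower on array 2 than each of the 8. The points share 2 pools and 4 arrays, and likeness here is mostly likeness of the mean.

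**Figure D4:**
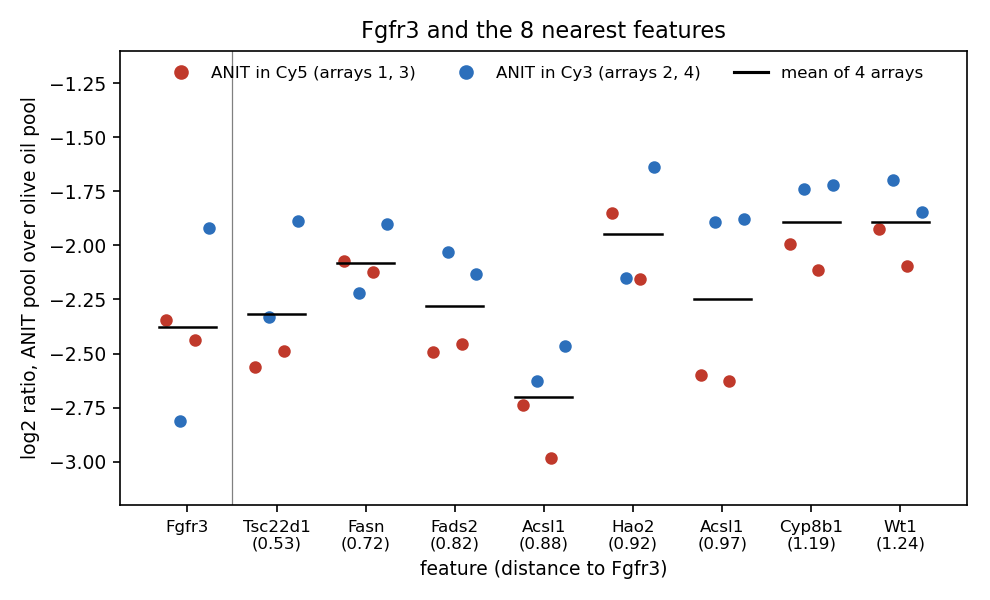
Log2 ratio of the ANIT pool over the olive oil pool (vertical axis) on each array (red for ANIT in Cy5, blue for ANIT in Cy3) for Fgfr3 and the 8 nearest features, with the mean of the 4 arrays as a line and the Euclidean distance to Fgfr3 in parentheses. The array 2 value of Fgfr3, -2.81, lies below the array 2 values of the other features, and the means of the 8 lie between -2.70 and -1.89.

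Markers of cell types that a liver holds are given beside the Fgfr3 ratio. By gene mean, none of 8 hepatocyte, 3 cholangiocyte, 3 endothelial, 4 stellate cell and fibroblast, 1 neutrophil and 2 lymphocyte markers measured passed the rule. The shares over all genes were 3.55% lower and 0.626% higher. The marker lists were chosen with earlier results of these data known, and each count covers the listed genes only. Bile acid genes were listed apart and not counted as hepatocyte markers, and of the 6 measured 4 were lower and 0 higher. The gene mean of the hepatocyte marker Cyp2e1 (-0.51 ± 0.44) covers 7 features that disagreed, of which 2 were lower by the rule, at -1.24 and -1.05. Hepatocyte markers had a median of -0.10, with Pck1, an enzyme of gluconeogenesis, at -0.58 ± 0.51 and the fibrinogen chain Fgg at 0.56 ± 0.12. Cholangiocyte markers had a median of -0.31, or -1.27 and 0.62 in the orientations with ANIT in Cy5 and in Cy3. The lowest marker of all was Il2rb at -0.84 ± 0.12, and Krt7, Krt19 and Sox9 of the cholangiocyte list had no feature with a single symbol. The part of cell composition in the Fgfr3 ratio was not tested.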

How the data were processed

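Per the labels, the liver RNA of the 3 rats in a condition was combined, and poly(A) RNA of each pool was labelled with Cy3 or Cy5 and hybridised to spotted cDNA arrays. The authors deposited 1 log ratio per feature and array, which was read as log2. How the arrays were scanned and normalized, and the base and direction of the ratio, is not given in the sources. Values were used as deposited. All 1936 features had 4 ratios. Features were named by the platform annotation (1432 with 1 symbol, 19 with several, 485 with none), and the symbols of the 3 receptor features matched RefSeq by gene ID (GRCr8).

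With 1 pool per condition no test was run. Arrays were averaged over the balanced dye swap, and lists used gene means. Named genes were every receptor feature, of each list those past the rule and up to 4 others with the largest mean in size, and the 8 nearest features of other genes; Ttr, Car3, Car2 and Scd were named after their values were seen. The members and lists were chosen with earlier results of these data known. Alternatives were centring, single orientations, arrays left out, other limits and log base. Computation used Python 3.11.15 with pandas 2.3.3, numpy 2.4.6 and matplotlib 3.10.9.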

Additional observations from a re-analysis of the deposited data

Results flagged for a closer look

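Of 80 sets of 4 array ratios examined for an array far from the others, 2 were flagged, where chance flags about 5% of such sets. Neither flagged set belongs to an FGF receptor, and the difference of 0.89 between arrays 2 and 4 of Fgfr3 was not flagged by this rule. Ttr had 1 array apart (array 3, -0.54, against -0.03 to 0.04 on the others), a gap of 0.878 of its range. Slc10a1, by gene mean, had array 2 at -1.37 apart from -1.47 to -1.45 on the others, a gap of 0.837 of a narrow range.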

How the results depend on the processing

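Fgfr3 was lower, and the Fgfr2 features were not called, under each alternative tried. The mean of Fgfr3 lay between -2.60 and -2.16 with each array left out, and read as natural logarithms it became -3.43 on the log2 scale (10.8-fold lower). The Fgfr3 minus Fgfr2 difference was -2.21 with ANIT in Cy5 alone, -2.88 with ANIT in Cy3 alone, and -2.77 to -2.33 with each array left out. Counts over all features moved more. Lower features were 667 with ANIT in Cy5 alone, 134 at 1.5-fold, 23 at 3-fold and 113 with natural logarithms, and higher features were 48, 5 and 33 under the last 3 of these. With ANIT in Cy5 alone 4 adaptors, 2 other receptor kinases and 4 other growth factors were lower. With ANIT in Cy3 alone the medians of feedback phosphatases and other growth factors were 0.36 and 0.50, and bile acid genes had 2 lower members and a median of -0.78. Medians of other receptor kinases, adaptors and target genes changed sign with the dye as well. They were -0.78, -0.74 and -0.42 with ANIT in Cy5 alone, and 0.41, 0.29 and 0.59 with ANIT in Cy3 alone. With centred arrays 1 adaptor list gene, Stat3, was higher and the MAP kinase median was 0.31. With each feature on its own, 1 Stat3 feature was higher, 7 bile acid features were lower and the MAP kinase median was -0.014. No paired analysis was possible because each condition is 1 pool and the result comes from no test. Unknown spot intensities limit the weight of single features.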
